A study of Mus musculus with 109 samples.

Results

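The genes Zfp930, Zfp869, Ssbp4, B3gnt3, Usp38, Zfp330, Dnase2a, Slc6a2, Ciapin1 and Adgrg3 of mouse chromosome 8 were followed across lung samples of a cigarette smoke study. They were chosen because their levels differed between mice with 1 disrupted copy of Hhip and wild type, and because they lie on the chromosome that carries Hhip. All 10 were found on the array, with 16 probes of the 25697, and all 10 passed the filter on dim probes, as did 15 of the 16 probes. They are 10 of the 11346 genes or unnamed probes tested and 10 of the 564 tested genes of chromosome 8.

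Lung RNA of each sample was read on its own Illumina bead array, with a single colour. The HHIPHet groups are strain C57BL6 with a heterozygous Hhip genotype, 14 arrays after smoke and 12 after air. The FAM13AKO groups are C57BL6 with the Fam13a knockout, 13 smoke and 6 air arrays. The NZW groups are wild type of the strain NZWLacJ, 6 smoke and 8 air arrays, and their titles name C57 where their strain label names NZWLacJ. The WT groups are C57BL6 wild type, 28 smoke and 22 air arrays. Smoke came from 3R4F research cigarettes, mixed main-stream and side-stream, on 5 days a week, and the exposure lasted 6 months. No label gives sex, age, litter, slide or how the alleles were made, and whether each array is a different animal is not said; the spread behind every p-value is that between arrays, which may be technical.

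Hhip encodes a cell-surface protein that binds Hedgehog ligands and lowers their signalling. A targeted allele is usually made in embryonic stem cells of one mouse strain and then bred to another, and DNA that flanks the target can travel with the allele through many crosses. Genes in such a flank can then read at the donor strain's level, through a sequence difference that changes either the expression or the binding of the RNA to its probe. An inbred strain such as NZWLacJ shows how far the same probes can differ between strains. The files hold no genotypes, so whether donor DNA is present here was not tested.

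The reference promoters of 4 of the genes are shown, because they are a pair on each side of Hhip, with 1 gene lower and 1 gene higher in HHIPHet in each pair. They are RefSeq sequences of the GRCm38.p6 assembly, from 250 bases before to 50 after the start, 5′ to 3′ on the gene's strand, all minus. Of the 10 genes, 8 had an entry; Zfp930 and Slc6a2 are not shown. Capitals mark 2 motifs searched on both strands, GGGCGG and CCAAT, which do not overlap each other in these windows.
Zfp869: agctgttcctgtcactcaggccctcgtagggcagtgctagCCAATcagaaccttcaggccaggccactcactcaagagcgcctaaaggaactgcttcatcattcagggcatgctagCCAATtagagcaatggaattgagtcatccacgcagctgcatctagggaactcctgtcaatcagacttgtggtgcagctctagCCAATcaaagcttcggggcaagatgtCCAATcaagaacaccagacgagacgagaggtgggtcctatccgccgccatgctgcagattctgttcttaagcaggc
Ssbp4: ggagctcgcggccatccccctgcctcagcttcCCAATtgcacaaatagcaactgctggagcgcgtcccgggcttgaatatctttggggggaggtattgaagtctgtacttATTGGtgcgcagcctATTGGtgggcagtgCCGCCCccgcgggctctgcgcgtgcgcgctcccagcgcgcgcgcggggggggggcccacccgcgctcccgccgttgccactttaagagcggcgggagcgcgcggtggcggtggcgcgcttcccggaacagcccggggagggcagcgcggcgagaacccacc
Zfp330: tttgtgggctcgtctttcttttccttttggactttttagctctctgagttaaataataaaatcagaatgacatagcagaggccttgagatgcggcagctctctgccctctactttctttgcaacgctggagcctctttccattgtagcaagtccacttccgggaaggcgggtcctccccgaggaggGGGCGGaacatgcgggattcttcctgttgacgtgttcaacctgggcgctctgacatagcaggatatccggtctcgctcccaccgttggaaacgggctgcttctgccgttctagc
Ciapin1: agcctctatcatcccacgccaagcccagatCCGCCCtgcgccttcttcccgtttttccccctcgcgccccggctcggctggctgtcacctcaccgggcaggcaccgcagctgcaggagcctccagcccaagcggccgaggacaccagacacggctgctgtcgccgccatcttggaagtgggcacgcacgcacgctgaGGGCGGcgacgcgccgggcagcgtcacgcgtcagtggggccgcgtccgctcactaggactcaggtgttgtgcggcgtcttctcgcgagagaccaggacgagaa
The windows are chr8:69716853-69717152 for Zfp869, chr8:70608265-70608564 for Ssbp4, chr8:82774096-82774395 for Zfp330 and chr8:94838291-94838590 for Ciapin1. Zfp869 held 4 copies of CCAAT and none of GGGCGG, and Ssbp4 held 3 and 1. Zfp330 held 1 copy of GGGCGG and Ciapin1 held 2, both with no CCAAT. Of the 8 promoters, 7 held GGGCGG and 4 held CCAAT, against 35.7% and 37.4% of the 32851 promoters in the table. The 8 are 1 entry per gene, while the 32851 are all entries, whether or not the gene was tested here. The 2 sets are thus not matched, and the shares are a description. A match describes these letters of the reference strain and is not a measured site.

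Some arrays went against their labels, and the values that touch the 10 genes are given before the results. A strain reading was taken from the 100 genes of other chromosomes that best separate the NZW from the WT arrays, scaled so that 0 is the WT and 1 the NZW median. NZW smoke array 5 read 0.0043 and NZW air array 5 read 0.0246, while the other 12 NZW arrays read from 0.88 to 1.09. Results on NZW are given over all arrays and, where stated, without these 2, and the linear levels are given without them. WT air arrays 6 and 22 had Zfp330 at 9.26 and 9.64, inside the HHIPHet air range, and the other 20 WT air arrays had it at 10.15 or more. HHIPHet smoke arrays 1, 5 and 12 had it at 10.34, 10.21 and 10.28, inside the WT smoke range. Detection was lowest on HHIPHet smoke array 11 and WT air array 5, at 36.04% and 37.1% of probes, and reached 53.9% on the array with most. The lung markers Sftpc, Ager and Scgb1a1 were detected on every array. The Hhip probe itself did not separate the genotypes: it averaged 6.54 ± 0.29 in HHIPHet smoke (SD, n = 14) and 6.57 ± 0.48 in WT smoke (n = 28), and 6.55 ± 0.30 in HHIPHet air (n = 12) and 6.60 ± 0.34 in WT air (n = 22). Which part of the transcript this probe reads, and whether the allele removes it, was not analysed here.

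Values below are log2 intensities after background correction and quantile normalization with limma's neqc, and differences are on the same log2 scale. Because the genes were chosen on the difference between HHIPHet and WT, in both exposures, these differences are a description with no test. By limma with an adjusted p below 0.05, 9 of the 10 passed in smoke, 6 lower and 3 higher, where 1.87% of all genes tested passed, 0.89% lower and 0.978% higher. In air 3 of the 10 passed, 2 lower and 1 higher, where 0.0617% of all genes passed, 0.0441% lower and 0.0176% higher. These counts follow from the choice of the genes, and nothing is read from them. Without NZW smoke array 5 and NZW air array 5, which enter through the shared estimate of the spread, the count was again 9 in smoke and was 5 in air, where 2.39% and 0.167% of all genes passed. In smoke, median scaling ended the calls of Zfp930, Dnase2a and Ciapin1, and leaving out the 2 arrays with the lowest detection ended those of Zfp330 and Ciapin1. The median difference of the 10 was -0.59 in smoke and -0.49 in air, against -0.01 in both exposures over all genes tested. In bulk lung, fewer cells of a type and less RNA per cell cannot be told apart.

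**Figure D1:**
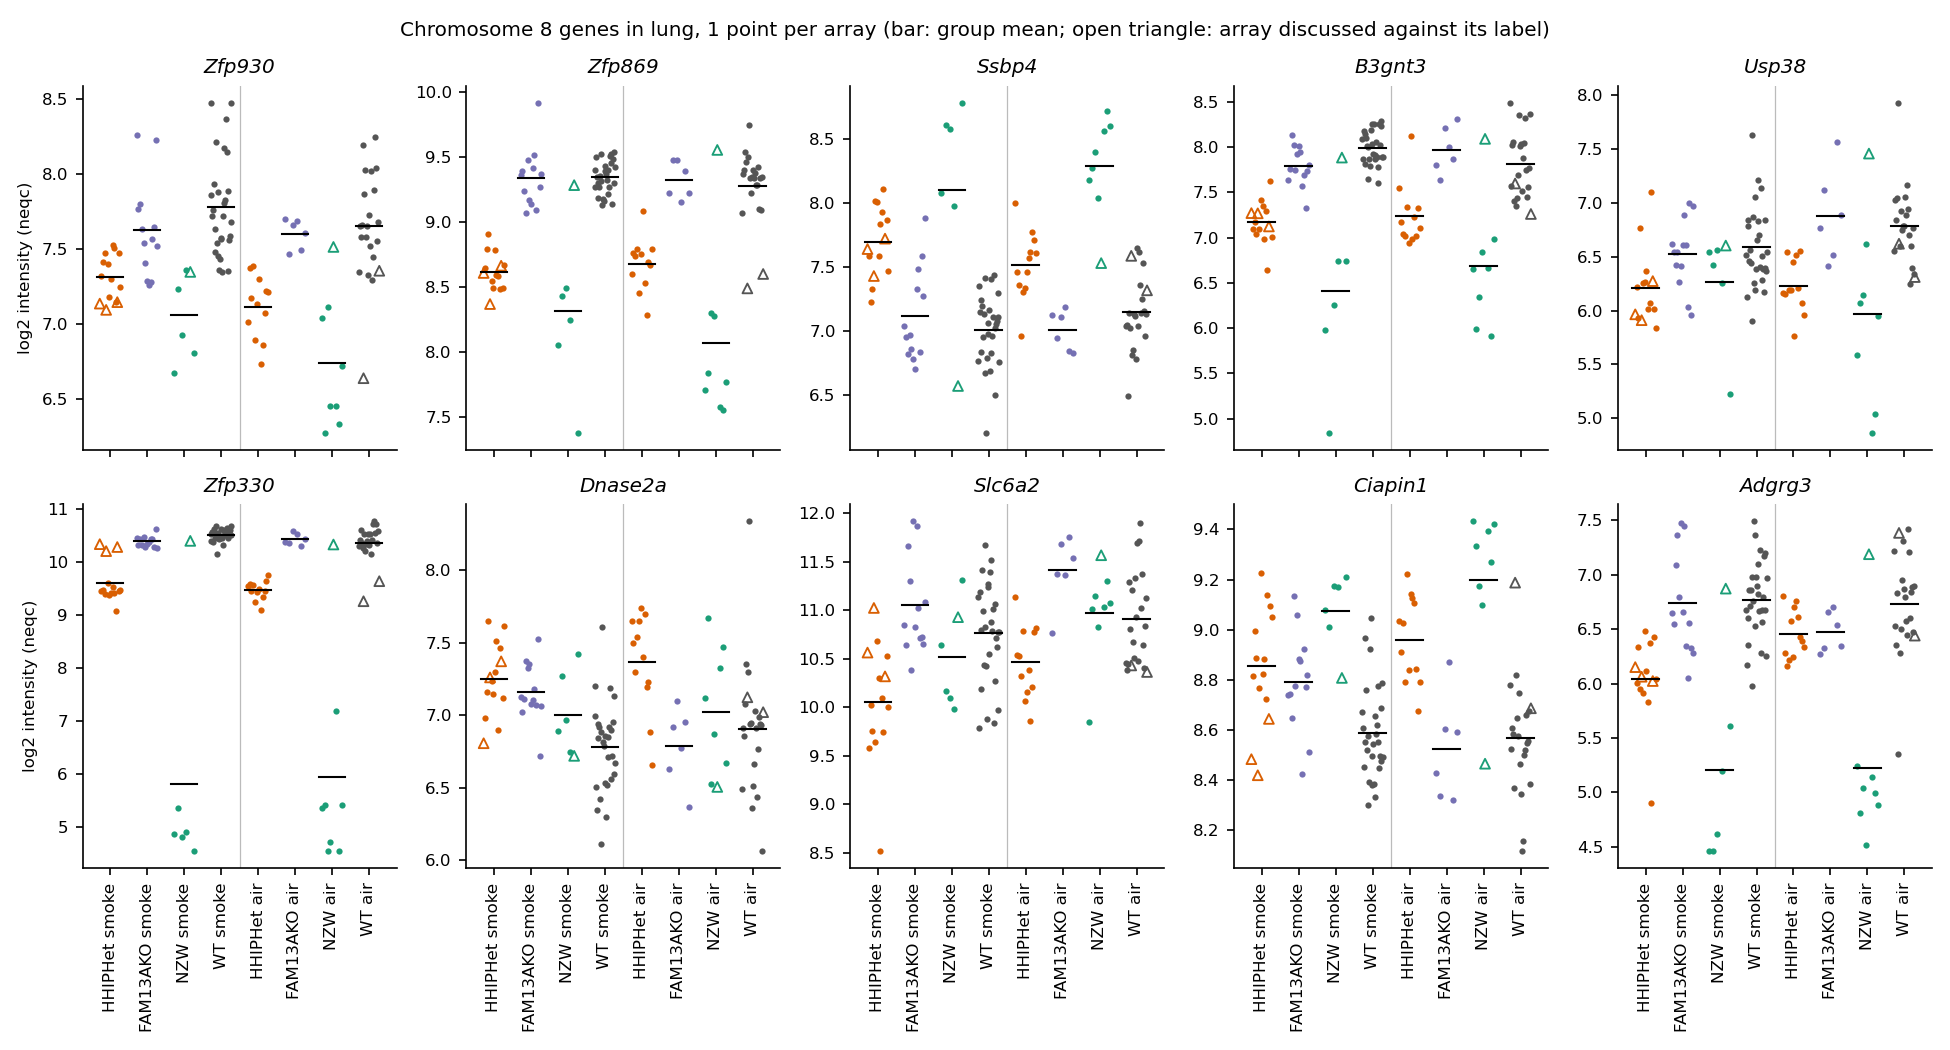
Level of each of the 10 genes (log2 intensity after neqc, brightest kept probe) on every array, by group; bars are group means and open triangles mark the arrays that go against their labels. Zfp869 in HHIPHet smoke lies wholly below WT smoke, with 8.91 as its highest value, and Zfp330 in NZW lies at 7.19 or less except on the 2 doubted arrays.

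The zinc finger genes were lower in HHIPHet. Zfp330, whose human counterpart encodes a nucleolar zinc finger protein, had 9.07, 9.46 and 10.34 as its lowest, median and highest value in HHIPHet smoke, against 10.15, 10.54 and 10.68 in WT smoke. The difference was -0.91 (SE 0.24), with 11 of 14 HHIPHet smoke arrays below every WT smoke array and the other 3 being arrays 1, 5 and 12. In HHIPHet air it ran over 9.09, 9.48 and 9.75, against 9.26, 10.40 and 10.78 in WT air, a difference of -0.89 (SE 0.27). These values are of the brighter Zfp330 probe, and the differences on the dimmer probe, given below, were smaller. WT air arrays 6 and 22 were the WT values inside the HHIPHet range. Zfp869, a zinc finger protein gene before Hhip in gene order, had 8.37, 8.60 and 8.91 in HHIPHet smoke, against 9.13, 9.35 and 9.54 in WT smoke, a difference of -0.73 (SE 0.10). All 14 HHIPHet smoke arrays lay below the lowest WT smoke array. In HHIPHet air it had 8.28, 8.71 and 9.09, against 8.49, 9.34 and 9.74 in WT air, a difference of -0.60 (SE 0.10), and the ranges overlapped through HHIPHet air array 7 and WT air arrays 6 and 22. Zfp930, the zinc finger gene that lies first of the 10 in gene order, had 7.09, 7.31 and 7.52 in HHIPHet smoke, against 7.35, 7.72 and 8.48 in WT smoke. The difference was -0.47 (SE 0.10) in smoke and -0.54 (SE 0.11) in air, and all 14 smoke and all 12 air HHIPHet arrays lay below the WT mean of their exposure, though the ranges overlapped.

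Of the enzymes, 2 were lower and 1 was higher in HHIPHet. B3gnt3 encodes a glycosyltransferase that extends O-linked sugar chains. It had 6.64, 7.15 and 7.62 in HHIPHet smoke, against 7.61, 8.01 and 8.29 in WT smoke, a difference of -0.83 (SE 0.12). The groups overlapped through 1 array, since 13 of 14 HHIPHet smoke arrays lay below every WT smoke array. In HHIPHet air B3gnt3 had 6.94, 7.14 and 8.12, against 7.26, 7.76 and 8.49 in WT air, a difference of -0.58 (SE 0.14); array 7 held the highest HHIPHet value. Usp38, which removes ubiquitin from proteins, had 5.83, 6.14 and 7.10 in HHIPHet smoke, against 5.90, 6.51 and 7.63 in WT smoke. Its difference was -0.37 (SE 0.13) in smoke and -0.55 (SE 0.15) in air, and it passed the threshold in neither exposure. Dnase2a encodes the lysosomal DNase that digests the DNA of engulfed cells. It had 6.81, 7.25 and 7.65 in HHIPHet smoke, against 6.11, 6.83 and 7.61 in WT smoke, a difference of 0.47 (SE 0.11). All 14 HHIPHet smoke arrays lay above the WT smoke mean, and the ranges overlapped widely. In air the difference was 0.46 (SE 0.12), with 10 of 12 HHIPHet arrays above the WT mean.

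A partner of transcription factors and an iron-sulfur factor were higher. Ssbp4, a single-stranded DNA binding protein that associates with LIM-domain binding proteins, had 7.23, 7.68 and 8.11 in HHIPHet smoke, against 6.20, 7.06 and 7.44 in WT smoke, a difference of 0.69 (SE 0.11). Of the 14 HHIPHet smoke arrays, 11 lay above every WT smoke array. In HHIPHet air it had 6.97, 7.51 and 8.003, against 6.50, 7.14 and 7.65 in WT air, a smaller difference of 0.37 (SE 0.12) in which the groups overlapped. Ciapin1, which passes electrons in the assembly of cytosolic iron-sulfur clusters, had 8.68, 8.97 and 9.22 in HHIPHet air, against 8.11, 8.57 and 9.19 in WT air, a difference of 0.39 (SE 0.08). All 12 HHIPHet air arrays lay above the WT air mean. In HHIPHet smoke it had 8.42, 8.85 and 9.23, against 8.30, 8.55 and 9.04 in WT smoke, a difference of 0.27 (SE 0.07). The 2 HHIPHet smoke arrays below the WT smoke mean were 1 and 5.

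The membrane proteins were lower in HHIPHet smoke. Slc6a2, the transporter that takes noradrenaline back into cells, had 8.51, 10.06 and 11.02 in HHIPHet smoke, against 9.78, 10.78 and 11.67 in WT smoke, a difference of -0.71 (SE 0.16). The groups overlapped, with 13 of 14 HHIPHet smoke arrays below the WT mean. In air the difference was -0.45 (SE 0.18), with 11 of 12 HHIPHet arrays below the WT mean. Adgrg3, an adhesion G protein-coupled receptor found on granulocytes, had 4.91, 6.05 and 6.48 in HHIPHet smoke, against 5.98, 6.78 and 7.50 in WT smoke, a difference of -0.73 (SE 0.15). All 14 HHIPHet smoke arrays lay below the WT smoke mean, and the lowest was array 11, which detected the fewest probes. In air the difference was -0.28 (SE 0.17). Of the 6 tested neutrophil markers, none passed in smoke, and their median difference was 0.18; their part in the Adgrg3 difference was not tested.

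Values next to the threshold show how it divides the genes. In air Zfp930 was the last chromosome 8 gene inside it, with a difference of -0.54 (SE 0.11), and B3gnt3 the first outside, with -0.58 (SE 0.14). In smoke Ciapin1, at 0.27 (SE 0.07), was the last of the 10 genes inside, and Zmat4, at 0.40 (SE 0.12), was the first chromosome 8 gene outside.

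In gene order the 10 genes lie on both sides of Hhip, with Zfp930, Zfp869, Ssbp4 and B3gnt3 before it and the others after it. Zfp930 was 83 tested genes before Hhip and Adgrg3 97 after it. Of the 181 tested genes from the first to the last of the 10, 22 passed in smoke, which is 12.2%, and these include 9 of the 10. Outside that stretch 14 of 383 tested genes of chromosome 8 passed, which is 3.66%, and 176 of the 10782 genes or unnamed probes elsewhere passed, which is 1.63%. In air 4 of the 181 passed, none of the 383, and 3 of the 10782. The stretch was set by the genes chosen, so these shares are a description. The 19 genes that flank the 10 in the tested gene order differed by between -0.32 and 0.38 in smoke and between -0.29 and 0.35 in air. Of these, only Zfp868 passed, in smoke.

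**Figure D2:**
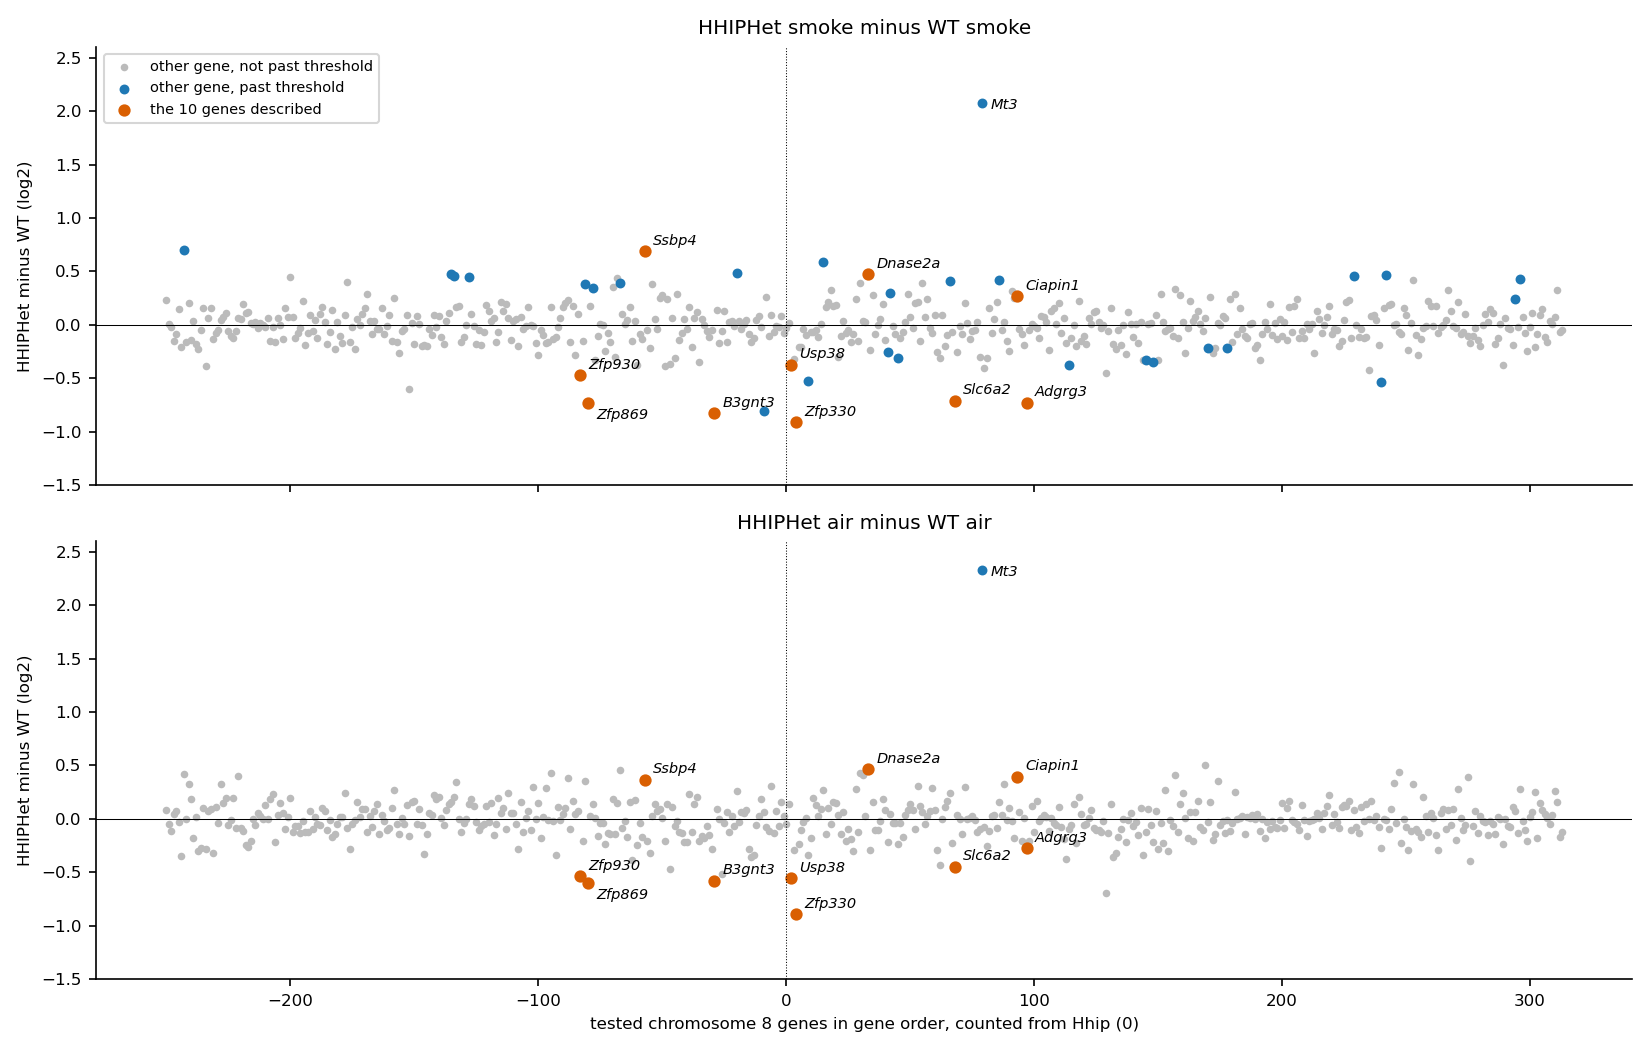
Difference between HHIPHet and WT (log2) for the 564 tested genes of chromosome 8 in gene order counted from Hhip, in smoke (top) and in air (bottom); orange points are the 10 genes and blue points other genes past the threshold. Genes with differences near 0 lie between the 10, and Mt3 stands highest at 2.08 in smoke and 2.33 in air.

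Named next are the 8 other chromosome 8 genes with the smallest p in smoke. Mt3, a metallothionein that binds zinc and copper, differed by 2.08 (SE 0.28) in smoke and 2.33 (SE 0.31) in air. On its probe 2 of the 22 WT air arrays and 9 of the 28 WT smoke arrays were above background, against 12 of 12 and 11 of 14 HHIPHet arrays. Zfp868 differed by 0.38 (SE 0.09), Cpne2 by 0.42 (SE 0.10), Orc6 by -0.31 (SE 0.07) and Dnajb1 by -0.53 (SE 0.12), all in smoke. Past the stretch, Wfdc1 differed by -0.53 (SE 0.10), Cenpt by -0.33 (SE 0.08) and Nob1 by -0.22 (SE 0.05).

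Array by array, the 10 genes did not always move together. On HHIPHet smoke arrays 1, 5 and 12, Zfp869 was at 8.61, 8.37 and 8.66 and B3gnt3 at 7.27, 7.27 and 7.12, all below the lowest WT smoke array. Zfp930, at 7.13, 7.09 and 7.14, was also below that range, and Ssbp4 was high at 7.64, 7.43 and 7.72, with array 5 inside the WT range. The same arrays had Zfp330 inside the WT range, Ciapin1 at 8.48, 8.42 and 8.64, and Mt3 at 4.67, 5.40 and 4.83. The other genes of the 10 after Hhip, Usp38, Dnase2a, Slc6a2 and Adgrg3, were inside the WT range too. Adgrg3, the last of the 10 in chromosome order, was at 6.15, 6.06 and 6.02, near the HHIPHet smoke median of 6.05, and Usp38 was at 5.96, 5.91 and 6.27. Dnase2a was at 6.81 on array 1 and at 7.26 and 7.37 on arrays 5 and 12, and Slc6a2 was at 10.56, 11.02 and 10.32. On these arrays Zfp330, Ciapin1 and Mt3 were outside the range of the other HHIPHet smoke arrays. Usp38 and Adgrg3 were inside it, as were Slc6a2 on arrays 1 and 12 and Dnase2a on arrays 5 and 12. Values inside both ranges cannot tell the genotypes apart, so they do not show whether the level changed at Hhip. A change of level at Hhip was not tested. The other 11 HHIPHet smoke arrays had Mt3 between 6.99 and 9.41. WT smoke arrays 12 and 4 had Mt3 inside that range too, at 8.45 and 7.26, while every WT smoke array had Zfp869 at 9.13 or more. On HHIPHet air array 7, Zfp869 at 9.09 and B3gnt3 at 8.12 were the highest of the 12 HHIPHet air arrays and inside the WT air range. On that array Zfp330 at 9.49, Mt3 at 7.86 and Ciapin1 at 9.14 lay inside the range of the other HHIPHet air arrays, as did the other genes except Usp38, which was lowest at 5.77. Among WT air arrays, 6 and 22 had Zfp869 at 8.49 and 8.60 and Mt3 at 7.92 and 6.60, while the other 20 had Zfp869 at 9.06 or more and Mt3 at 5.42 or less. For Ssbp4, at 7.59 and 7.32, Dnase2a, at 7.12 and 7.02, and Adgrg3, at 7.38 and 6.44, both arrays lay inside the range of the other WT air arrays. These arrays were singled out after their values were seen, and the cause was not tested.

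**Figure D3:**
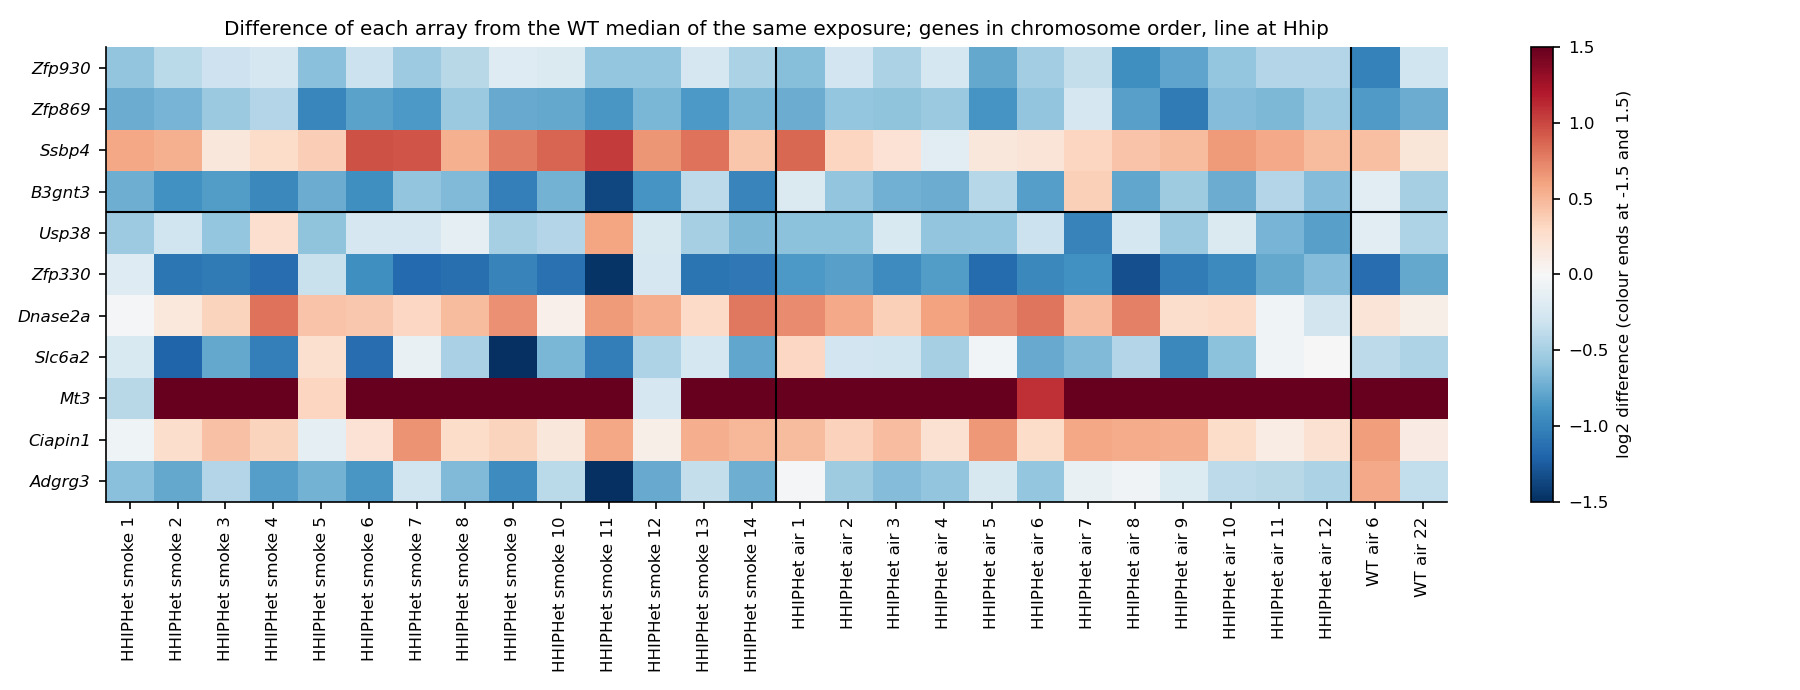
Difference of each HHIPHet array, and of WT air arrays 6 and 22, from the WT median of the same exposure (log2 colour scale), with genes in chromosome order and a line at Hhip. Smoke arrays 1, 5 and 12 are pale for Zfp330, Mt3 and Ciapin1 and blue for Zfp869, B3gnt3 and Adgrg3, air array 7 is pale or red for Zfp869 and B3gnt3, and WT air arrays 6 and 22 are blue for Zfp869 and Zfp330.

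The NZW strain differed from WT for a large share of all genes tested, and for most of the 10. Its arrays are in neither group of the comparison used for the choice, but they enter that fit's estimate of the spread, and earlier results of these data were known when the genes were chosen. The comparison shares its WT arrays with the one used for the choice, so each is given on its own. With all arrays, 7 of the 10 passed in smoke, 2 higher and 5 lower, where 50.7% of all genes passed, 25.8% higher and 24.9% lower. In air 8 of the 10 passed, 2 higher and 6 lower, where 43.3% of all genes passed, 24.8% higher and 18.5% lower. Without the 2 doubted NZW arrays the counts were again 7 and 8, where 56.9% and 46.7% of all genes passed. With shares this large, these counts are not read as particular to the 10. Slc6a2 and Dnase2a passed in neither exposure, and Usp38 passed in air.

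Zfp330 showed the widest gap. In NZW smoke its levels were 4.54, 4.80, 4.87, 4.89, 5.35 and 10.40, the last being array 5, against 10.15, 10.54 and 10.68 as lowest, median and highest in WT smoke. In NZW air they ran from 4.53 to 7.19 on 7 arrays and stood at 10.33 on array 5, against 9.26 to 10.78 in WT air. The 2 doubted arrays read as WT and all others lay below every WT array. The difference from WT was -4.71 (SE 0.34, limma adjusted p = 1.5e-22) in smoke and -4.43 (SE 0.31, adjusted p = 8.58e-24) in air. These values are of its brightest probe, on which no NZW smoke array was above background without the doubted arrays. On that probe the NZW smoke signal was at least 31.8-fold lower than in WT smoke and at least 16.9-fold lower than in HHIPHet smoke. These bounds set the bright group's mean against the lowest signal above background on each array, or the probe's own signal where higher. They do not hold for the second Zfp330 probe, which was detected on every NZW array. On it NZW smoke averaged 51.8% of WT smoke on the linear scale, without the doubted arrays.

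The other genes that passed moved by less. B3gnt3 differed between NZW and WT by -1.59 (SE 0.17, adjusted p = 2.5e-13) in smoke and -1.13 (SE 0.16, adjusted p = 3.07e-09) in air. Zfp869 differed by -1.03 (SE 0.13) in smoke and -1.20 (SE 0.12) in air, and Zfp930 by -0.72 (SE 0.14) and -0.92 (SE 0.13). Ssbp4 was higher in NZW, by 1.09 (SE 0.15, adjusted p = 3.62e-09) in smoke and 1.14 (SE 0.14) in air. Ciapin1 was also higher, by 0.49 (SE 0.10) in smoke and 0.63 (SE 0.09, adjusted p = 6.21e-09) in air. In NZW smoke Ssbp4 had 6.57, 8.33 and 8.78 as lowest, median and highest, against 6.20, 7.06 and 7.44 in WT smoke, and the lowest was doubted array 5. The other 5 NZW smoke arrays, from 7.97 up, lay above every WT smoke array. Usp38 differed by -0.82 (SE 0.17, adjusted p = 4.02e-05) in air and -0.32 (SE 0.18, adjusted p = 0.14) in smoke. Dnase2a, higher in HHIPHet, differed in NZW by 0.22 (SE 0.15, adjusted p = 0.214) in smoke and 0.11 (SE 0.14) in air. Hhip itself was higher in NZW than in WT, by 0.42 (SE 0.18, adjusted p = 0.0388) in smoke and 0.95 (SE 0.16) in air.

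Leaving out the doubted arrays changed none of these genes' calls. B3gnt3 then differed by -1.88 (SE 0.15) in smoke and -1.33 (SE 0.14) in air, Zfp869 by -1.23 (SE 0.11) and -1.41 (SE 0.10), and Zfp930 by -0.78 (SE 0.14) and -1.03 (SE 0.13). Ssbp4 differed by 1.40 (SE 0.14) in smoke and 1.25 (SE 0.13) in air, and Ciapin1 by 0.54 (SE 0.10) and 0.74 (SE 0.09). These differences were larger in size than with all arrays. Usp38 differed by -0.39 (SE 0.18, adjusted p = 0.0654) in smoke and -1.03 (SE 0.16) in air, and Dnase2a by 0.28 (SE 0.16, adjusted p = 0.132) and 0.19 (SE 0.14). Slc6a2 differed by -0.32 (SE 0.24, adjusted p = 0.247) and -0.02 (SE 0.21), and Hhip by 0.53 (SE 0.19, adjusted p = 0.012) and 1.04 (SE 0.17).

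Adgrg3 had 4.46, 4.91 and 6.87 as lowest, median and highest in NZW smoke, against 5.98, 6.78 and 7.50 in WT smoke, and 5 of 6 NZW arrays lay below every WT array. The difference was -1.57 (SE 0.21, adjusted p = 8.06e-10) in smoke and -1.51 (SE 0.19) in air, with 1 of 6 NZW smoke and 2 of 8 NZW air arrays above background. Once array 5 was left out, 0 of 5 NZW smoke arrays detected it, at least 2.37-fold below WT smoke. Neutrophil markers moved with it: 4 of 6 tested passed lower in NZW smoke and 5 of 6 in NZW air, with median differences of -2.09 and -1.79. Their mean level ran from 7.13 to 8.84 on NZW smoke arrays and from 8.31 to 11.05 on WT smoke arrays. The part of the neutrophil markers in the Adgrg3 difference was not tested. Markers of other cell types moved between NZW and WT as well, and their part in the differences of the 10 genes was not tested. Of all genes tested, 24.9% passed lower and 25.8% higher in smoke, and 18.5% lower and 24.8% higher in air. Alveolar macrophage markers passed lower for 3 of 5 in each exposure, with medians of -1.08 in smoke and -0.78 in air. Alveolar type 2 markers passed lower for 4 of 6 in each, with medians of -0.86 and -0.85. B cell markers passed lower for 2 of 3 in each. Of 4 T and NK cell markers, 2 passed lower and 1 higher in smoke, and 3 lower and 1 higher in air. Heart muscle markers passed higher for 4 of 5 in smoke and 2 of 5 in air. Of 4 club and secretory cell markers, 2 passed higher in smoke and 1 in air, and none lower. Of 3 alveolar type 1 markers, 1 passed higher in smoke and none passed in air.

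**Figure D4:**
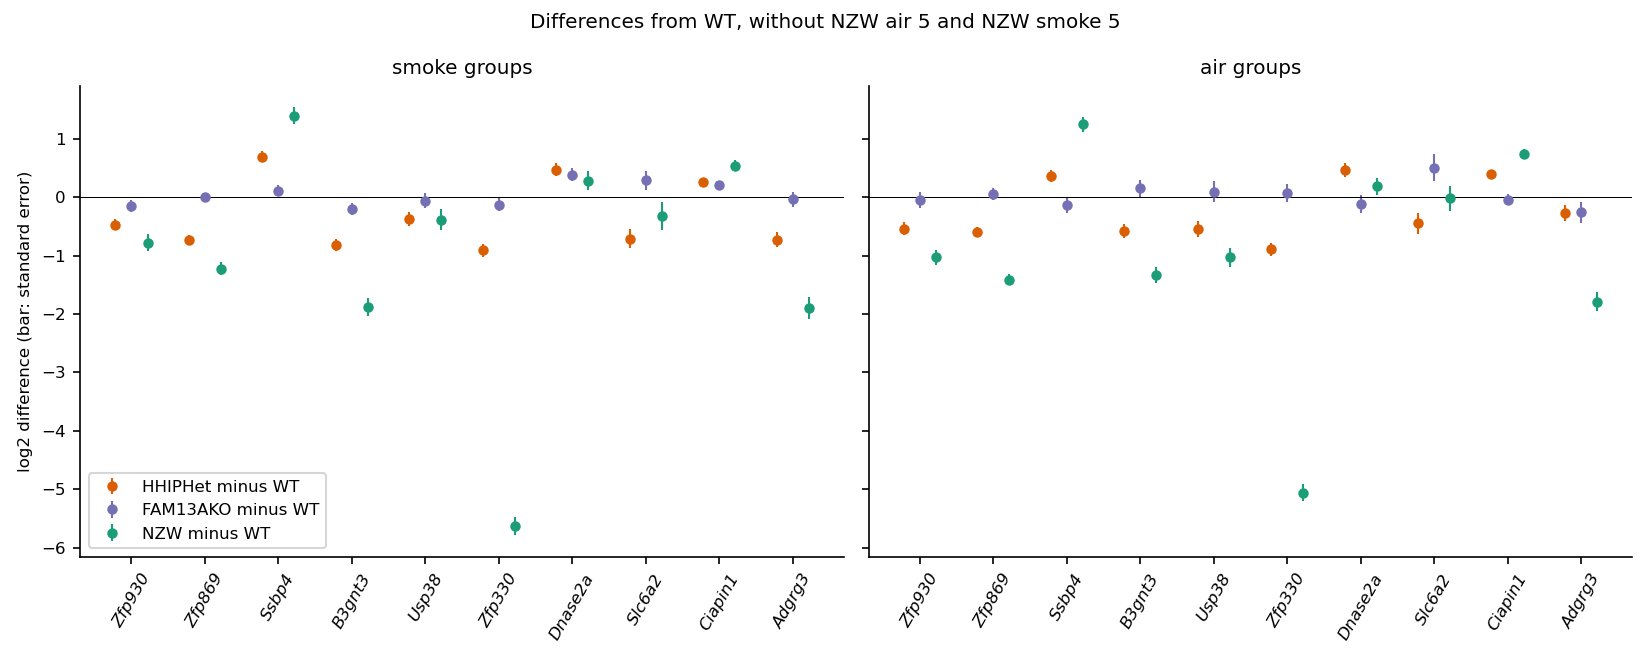
Difference from WT (log2, bars are standard errors) of HHIPHet, FAM13AKO and NZW for each of the 10 genes, in smoke (left) and air (right), without NZW smoke array 5 and NZW air array 5; the 3 comparisons share their WT arrays. Zfp330 reaches -5.63 and -5.06 in NZW, and the largest FAM13AKO difference is 0.50, for Slc6a2 in air.

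On the linear scale, after removal of the offset of 16 and without the doubted NZW arrays, the brighter Zfp330 probe averaged 791 ± 242 in HHIPHet smoke (SD, n = 14), 14.1 ± 6.41 in NZW smoke (n = 5) and 1453 ± 113 in WT smoke (n = 28). On this probe HHIPHet smoke was thus at 54.5% of WT smoke, and HHIPHet air at 52.3% of WT air. On the dimmer Zfp330 probe they were at 79.7% and 85.9%. Ciapin1 averaged 452 ± 75.6 in HHIPHet smoke, 544 ± 31.5 in NZW smoke and 372 ± 52.97 in WT smoke, with HHIPHet between the other two. B3gnt3 averaged 130 ± 23.2 in HHIPHet smoke, 60.5 ± 32.98 in NZW smoke and 241 ± 33.2 in WT smoke, again with HHIPHet in the middle. Zfp930, Zfp869, Ssbp4 and Adgrg3 had the same order of means in both exposures. On their brightest probes Slc6a2 and Dnase2a did not: Slc6a2 averaged 1130 ± 434 in HHIPHet smoke, 1463 ± 639 in NZW smoke and 1830 ± 633 in WT smoke, and Dnase2a averaged 138 ± 27.2 in HHIPHet smoke, 119 ± 26.6 in NZW smoke and 96.3 ± 25.4 in WT smoke. On the second Slc6a2 probe HHIPHet lay between, with 36.9 ± 22.02 in HHIPHet smoke, 22.9 ± 16.7 in NZW smoke and 65.4 ± 20.3 in WT smoke, and it lay between in air too. The third Slc6a2 probe had the same order but was not above background in HHIPHet smoke or NZW. Usp38 averaged 60.5 ± 21.9 in HHIPHet smoke and 61.4 ± 23.4 in NZW smoke, against 83.5 ± 28.9 in WT smoke. In air Usp38 averaged 60.1 ± 12.7 in HHIPHet, 42.2 ± 23.95 in NZW and 97.9 ± 34.5 in WT, with HHIPHet between.

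Set directly against HHIPHet in smoke, NZW differed for 4 of the 10 genes, 1 higher and 3 lower, where 45.7% of all genes passed, 23.6% higher and 22.1% lower. The HHIPHet smoke arrays are among those used for the choice, so the p-values of this comparison are a description. Zfp330 differed by -3.80 (SE 0.36, adjusted p = 1.48e-15), Adgrg3 by -0.84 (SE 0.23, adjusted p = 0.00146), B3gnt3 by -0.76 (SE 0.19, adjusted p = 0.000446) and Ssbp4 by 0.40 (SE 0.17, adjusted p = 0.0392). Without the doubted arrays 6 passed, where 52.7% of all genes passed, with Zfp869 at -0.49 (SE 0.12) and Ciapin1 at 0.27 (SE 0.11) added. With a term for 6 consecutively numbered NZW arrays, of which 4 are smoke arrays, 1 of the 10 passed, where 13.8% of all genes passed. The NZW smoke arrays outside that term are only arrays 5 and 6, and array 5 is doubted.

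Where a gene had more than 1 probe, the probes were compared. Zfp330 had a second kept probe, detected on every array of the HHIPHet, NZW and WT groups, on which the groups lay much closer. It averaged 9.15 ± 0.11 in HHIPHet smoke (SD, n = 14) and 9.44 ± 0.28 in WT smoke (n = 28), a difference of -0.30 (SE 0.09), and 9.13 ± 0.17 in HHIPHet air (n = 12) and 9.32 ± 0.32 in WT air (n = 22), a difference of -0.19 (SE 0.09). Between NZW and WT this probe differed by -0.79 (SE 0.12) in smoke and -0.48 (SE 0.11) in air, against -4.71 and -4.43 on the brighter probe. With the doubted arrays left out it differed by -0.93 (SE 0.12) and -0.54 (SE 0.11). Within an array, the brighter minus the dimmer probe averaged -2.84 ± 1.98 in NZW smoke (SD, n = 6) and 1.07 ± 0.21 in WT smoke (n = 28). An exact two-sided permutation test of that gap gave p = 1.26e-05 in smoke, adjusted p = 6.32e-05 over 10 such comparisons. In air the gap averaged -2.91 ± 1.81 in NZW (n = 8) and 1.04 ± 0.37 in WT (n = 22), with an exact permutation p = 2.05e-06. The brighter probe was above background on 1 of 6 NZW smoke and 5 of 8 NZW air arrays, so the gap there is limited by the background. Without the doubted arrays the gap was -3.63 ± 0.54 in NZW smoke (n = 5) and -3.48 ± 0.88 in NZW air (n = 7). In HHIPHet the gap was 0.46 ± 0.37 in smoke (SD, n = 14) and 0.33 ± 0.15 in air (n = 12), between the NZW and WT means.

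**Figure D5:**
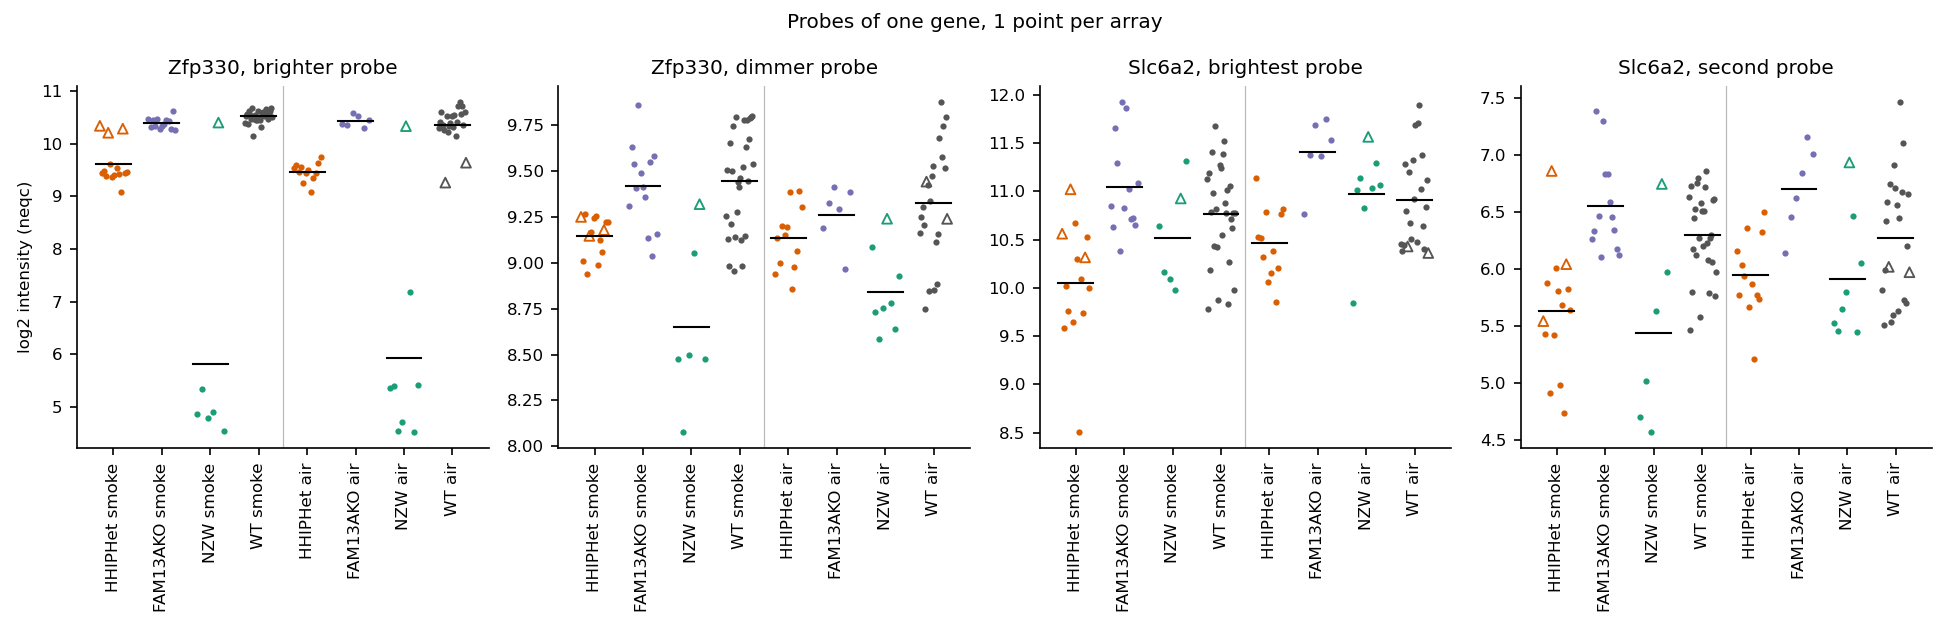
Level (log2 intensity after neqc) on every array for the 2 kept probes of Zfp330 and the 2 brighter probes of Slc6a2, by group; bars are group means. Apart from the 2 doubted arrays, Zfp330 in NZW lies at 7.19 or less on the brighter probe, and it is at 8.08 or more on the dimmer one on all NZW arrays, and Slc6a2 is lower in NZW smoke on its second probe.

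Slc6a2 had 3 kept probes. The brightest differed between NZW and WT by -0.24 (SE 0.22) in smoke and 0.07 (SE 0.20) in air, while the second differed by -0.86 (SE 0.22) and -0.36 (SE 0.20), and by -1.12 (SE 0.22) and -0.50 (SE 0.20) without the doubted arrays. The second was above background on 3 of 6 NZW smoke and 8 of 8 NZW air arrays. The third was above background on 1 of 6 NZW smoke and 1 of 8 NZW air arrays, and on none without the doubted arrays, so no size is given for it. The gap between the brightest and the second probe averaged 5.08 ± 0.69 in NZW smoke (SD, n = 6) and 4.46 ± 0.32 in WT smoke (n = 28), exact permutation p = 0.00238, adjusted p = 0.00594, and 5.26 ± 0.59 in NZW smoke without the doubted array (n = 5, exact permutation, adjusted p = 0.00101). Between HHIPHet and WT in smoke the brightest probe differed by -0.71 (SE 0.16) and the second by -0.67 (SE 0.16). The third was above background on none of 14 HHIPHet smoke arrays, against 20 of 28 WT smoke arrays, which gives only a bound of at least 1.01-fold lower. Dim probes tend to change less on this scale, so brightness can narrow a difference on them. Between NZW and WT the dimmer second probe changed more than the brightest in both exposures, and the cause of the gap was not tested.

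Both Adgrg3 probes were lower in NZW, but in NZW smoke each was above background on 1 of 6 arrays, and on none of 5 without the doubted array. The second was then at least 2.08-fold below WT smoke. In air, where 3 of 8 NZW arrays were above background on it, it differed by -1.29 (SE 0.18), and between HHIPHet and WT in smoke by -0.58 (SE 0.14). The gap between the 2 probes in NZW lies between values near background, so it is not read. Usp38 had 2 kept probes and 1 more that was detected on no array. Its dimmer kept probe differed between HHIPHet and WT by -0.12 (SE 0.11) in smoke and 0.09 (SE 0.12) in air, but it was above background on only 1 of 14 HHIPHet and 4 of 28 WT smoke arrays, and on 2 of 12 HHIPHet and 1 of 22 WT air arrays. On NZW arrays it was above background on 1 of 6 in smoke and none of 8 in air, so the gap between the Usp38 probes is not read either. These pairs were chosen after the values were seen. What each probe's sequence is, and whether a strain difference lies under it, was not tested.

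FAM13AKO is the other mutant on the C57BL6 strain, and its comparison shares its WT arrays with the one used for the choice. Its largest difference from WT was 0.50, for Slc6a2 in air, which did not pass. In air limma called 0 of the 10 genes, 1 at an unadjusted p below 0.05, where 0% of all genes passed. In smoke 1 of 10 passed, where 6.19% of all genes passed. It was Dnase2a, which had 6.72, 7.11 and 7.53 as lowest, median and highest in FAM13AKO smoke, against 6.11, 6.83 and 7.61 in WT smoke, a difference of 0.38 (SE 0.11, adjusted p = 0.0257). Zfp330 differed by -0.13 (SE 0.25) in smoke and 0.07 (SE 0.34) in air, and Zfp869 by -0.01 (SE 0.10) and 0.05 (SE 0.13). The 13 FAM13AKO smoke arrays had Zfp330 between 10.26 and 10.63, inside the WT smoke range.

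In the main fit smoke moved none of the 10 genes past the threshold in any strain or genotype, where few of all genes tested passed either. In HHIPHet limma called 0 of 10, 2 at an unadjusted p below 0.05, where 0.247% of all genes passed. They were Adgrg3, at -0.42 (SE 0.18, adjusted p = 0.738), and Slc6a2, at -0.41 (SE 0.19, adjusted p = 0.806). In WT 0 of 10 passed and 0 had an unadjusted p below 0.05, where 0.952% of all genes passed. FAM13AKO had 0 of 10, with 2 at an unadjusted p below 0.05, where 2.18% of all genes passed, and NZW had 0 of 10 and 0, where 0.987% passed. Without the doubted arrays NZW again had 0 of 10, with 4 at an unadjusted p below 0.05, where 2.54% of all genes passed. The HHIPHet and WT arrays are those used for the choice, so their smoke effects and the difference between these are a description. Genes chosen to differ in both exposures can show a small difference of smoke effects through the choice alone. The smoke effect in HHIPHet minus that in WT was called for 0 of 10 genes, with 1 at an unadjusted p below 0.05, where 0% of all genes passed. That gene was Adgrg3, at -0.45 (SE 0.23, adjusted p = 1), and Ssbp4 stood next by size on the other side, at 0.32 (SE 0.16).

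Across all arrays, which share the same strain and genotype groups, 7 of the 10 genes had another of the 10 as the most alike by Spearman correlation. Genes chosen on the same difference between groups tend to correlate over these groups, so the matches within the 10 are not read. Zfp930 and Zfp330 were each other's nearest, at 0.74, and Zfp869 was nearest to Zfp330, at 0.73. B3gnt3 was nearest to Adgrg3, at 0.73, Usp38 to Zfp869, at 0.55, Ciapin1 to Zfp869, at -0.68, and Dnase2a to B3gnt3, at -0.54. The nearest to Ssbp4 was Hap1 on chromosome 11, at 0.71, to Slc6a2 it was Tmc7 on chromosome 7, at 0.62, and to Adgrg3 it was Slc27a3 on chromosome 3, at -0.78.

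Other genes with roles like those of the 10 were read in the same fit in smoke, where 1.87% of all genes tested passed. The lists also hold the 10 genes themselves, whose calls follow from their choice and are not read. Of 11 tested genes for lysosomal nucleic acids and their sensors, 2 passed higher in HHIPHet, Dnase2a and Unc93b1, a carrier of nucleic acid sensing receptors, the second at 0.41 (SE 0.09, adjusted p = 0.00749). None of 8 interferon-responsive genes passed. Of 4 tested beta-1,3-N-acetylglucosaminyltransferases, B3gnt3 passed lower and B3gnt8 higher, at 0.52 (SE 0.14, adjusted p = 0.0223). Among 8 genes of the Ssbp family and its LIM partners, Ssbp4 passed and so did Lmo2, at 0.43 (SE 0.09, adjusted p = 0.00477). Of 5 tested genes of cytosolic iron-sulfur assembly only Ciapin1 passed, of 3 for noradrenaline handling only Slc6a2, and of 2 adhesion receptors of group G only Adgrg3. Of 9 tested Zfp genes of chromosome 8, the 3 that passed lower were Zfp930, Zfp869 and Zfp330, all of the 10, and Zfp868 passed higher. Of 5 tested Hedgehog pathway genes, Dhh, a Hedgehog ligand, passed lower at -0.57 (SE 0.16, adjusted p = 0.0332), and in air none of the 5 passed. No marker of endothelium, neutrophils, alveolar macrophages, B cells, T and NK cells or heart muscle passed between HHIPHet and WT in either exposure. The heart muscle list had median differences of -0.54 in smoke and -0.39 in air, and its mean level ran from 7.21 to 10.95 on HHIPHet smoke arrays and from 6.62 to 11.69 on WT smoke arrays.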

How the data were processed

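The authors deposited 1 table of probe intensity values for all arrays with a detection p-value per probe, not normalized per the file headers, and a table of normalized log2 values, used as an alternative. Total RNA was labelled with biotin, per the labels' protocols. The intensities were corrected with normexp and quantile normalized by neqc (limma 3.58.1, R 4.3.3), which adds an offset of 16. Probes with a detection p below 0.01 on at least 6 arrays were kept, 15363 of 25697, and a gene's value was its brightest kept probe. Of the probes, 23978 had 1 gene symbol, none had several and 1719 had none. Array median intensities ran from 66.1 to 144.5, and the number of arrays limits the precision.

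One limma model with 8 groups of strain, genotype and exposure was fitted over 11346 genes or unnamed probes (101 residual degrees of freedom), with Benjamini-Hochberg adjustment over all of them and a threshold of 0.05. The p-values quoted as exact come from permutation of arrays. The script was tested on simulated data. The members and lists were chosen with earlier results of these data known. Named besides the 10 genes and Hhip were their nearest gene by Spearman correlation, up to 8 other chromosome 8 genes past the threshold, genes next to the threshold, and list genes past it. NZW smoke array 5 and NZW air array 5 were kept in the main values and left out in an alternative. Leaving out WT air arrays 6 and 22, HHIPHet smoke arrays 1, 5 and 12, or arrays with under 40% of probes detected was added after seeing the data.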

Additional observations from a re-analysis of the deposited data

Results flagged for a closer look

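In groups of 4 to 10 arrays, a highest or lowest array was singled out where its gap to the nearest other array was a large share of the group's range. This met 8 of 30 combinations of gene and group, where chance gives about 1 in 20, and 6 of the 8 were NZW smoke array 5 or NZW air array 5. On NZW air array 5, Zfp330 was at 10.33, with the nearest other array at 7.19, and Zfp869 was at 9.55, with the nearest at 8.30. On the same array Ciapin1 was low at 8.46, with the nearest at 9.10, and Adgrg3 was high at 7.19, with the nearest at 5.24. On NZW smoke array 5, Zfp330 was at 10.40, with the nearest at 5.35, and Ssbp4 was low at 6.57, with the nearest at 7.97. The others were Usp38 on NZW smoke array 6, at 5.23 with the nearest at 6.26, and Slc6a2 on NZW air array 1, at 9.85 with the nearest at 10.83. The cause was not tested.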

How the results depend on the processing

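Over 1270 pairs of a gene's result and an alternative setting, 1219 kept their direction and their side of the threshold, 16 lost the threshold, 35 gained it, and no called result turned its sign; 46 uncalled ones did. Percentages in brackets are shares of all genes tested under the same setting. For HHIPHet against WT in smoke, median scaling (0.494%) ended the calls of Zfp930, Dnase2a and Ciapin1, leaving out arrays with under 40% of probes detected, HHIPHet smoke array 11 and WT air array 5 (1.35%), ended those of Zfp330 and Ciapin1, and weights (5.16%) added Usp38. In air, where 3 of the 10 genes passed (0.0617%), 8 passed with array quality weights (2.43%), 6 in a fit of those groups alone (0.185%), 0 with median scaling (0.00881%) and 5 with the authors' deposited log2 values (0.159%). Without the 2 NZW arrays that read as C57BL6 5 passed (0.167%), and 7 without these and WT air arrays 6 and 22 (0.353%). For NZW against WT in smoke, median scaling ended the call of Ciapin1 (adjusted p = 0.114), the mean of a gene's probes added Slc6a2 (adjusted p = 0.00338) and Usp38 (adjusted p = 0.0156), and a term for 6 consecutively numbered NZW arrays added Usp38 (adjusted p = 0.0458). For NZW against HHIPHet in smoke, where 4 passed (45.7%), 1 passed with that term (13.8%) and 7 with weights (58.5%). That term leaves only NZW smoke arrays 5, which is doubted, and 6 outside it. For FAM13AKO against WT in smoke, where 1 passed (6.19%), 2 passed with weights (9.1%), 0 with median scaling (1.45%) and 2 without the doubted NZW and WT arrays (6.92%). For smoke against air, weights gave 1 in FAM13AKO (14.4%) and 1 in NZW (16.4%), where 0 passed (2.18% and 0.987%). The causes were not tested. No paired analysis was possible because the labels carry only sample numbers, which groups do not share. The slide as a block was not run, since the file headers give none. Levels near background, as for the dimmer Usp38 and Slc6a2 probes, limit what their differences can show.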
